A study of Mus musculus with 9 samples.

Results

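RNA levels of 5 genes that mark lymphatic endothelium, Prox1, Flt4, Lyve1, Mmrn1 and Reln, were followed through the preparation of mouse mammary epithelial cells. The genes were chosen by symbol, as the array rows annotated with that symbol alone. All 5 were measured, each by a single row, among 19938 genes in all. The cells came from mammary glands of wild-type C3H females aged 8 to 9 weeks and were freed from fat with collagenase in every group. Untrypsinized cells had no further digestion, trypsinized cells were then treated with trypsin, and mock sorted cells had trypsin and then a mock pass through a fluorescence-activated cell sorter. Each group had 3 Affymetrix whole-transcript arrays, called biological replicates in the labels, which do not say which animals or pools they came from. P-values therefore speak only of how far these arrays scatter, and some of that scatter may be technical.

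Lymphatic vessels drain fluid and immune cells from tissues, and their lining cells are a branch of the endothelium. Prox1, a homeobox transcription factor, sets and keeps that identity, and Flt4 (VEGFR-3) is the receptor through which Vegfc drives lymphatic growth. Lyve1 is a hyaluronan receptor of lymphatic capillaries that some tissue macrophages also carry, Mmrn1 (multimerin 1) is a secreted glycoprotein also stored in platelets, and Reln (reelin) is a secreted glycoprotein best known from the brain.

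Levels are given as log2 of the deposited intensity plus 1, and changes as the difference between 2 group means on that scale with its standard error (SE), n = 3 arrays per group. A gene was called where its limma adjusted p did not exceed 0.05 and its fold reached 1.5. Arrays had a median intensity of 344.9 to 408.2, and precision is limited by how few arrays there are. The preparations are labelled epithelial. The mean log2 level of 9 luminal epithelial markers lay between 12.85 and 12.98 on every array, while that of 19 vascular endothelial markers lay between 11.10 and 11.32 on untrypsinized arrays, between 10.75 and 10.76 on trypsinized arrays and between 9.65 and 9.87 on mock sorted arrays. In such bulk samples, fewer cells of a type and less RNA per cell cannot be told apart.

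The lymphatic genes changed by different amounts, from -1.25 for Mmrn1 to -0.17 for Reln at the sorter step. At that step all 5 were lower in each of the 3 same-number pairs, and Lyve1 (-0.62) changed nearly as much as Flt4 (-0.66). The pairs were inferred from the values, since the labels do not give them. The share of all genes lower in every pair was not counted, so the pair counts have no background. In the fit without pairing, Mmrn1 fell at each step and Flt4 fell at the sorter step and over both steps. Prox1, Lyve1 and Reln were called in no comparison of that fit. With the replicate number as a block in a fit of trypsinized and mock sorted arrays only, Lyve1 was also called at the sorter step. These calls do not test whether members differ. Without pairing, 1 of 5 members was called lower after trypsin, where 0.933% of all genes were. After the mock sort 2 of 5 were called lower relative to trypsin alone, where 1.17% of all genes were, and over both steps 2 of 5, where 3.4% of all genes were. With no minimum fold the counts were 1 of 5 after trypsin, 2 of 5 at the sorter step and 4 of 5 over both steps, all lower, against 11.5%, 4.2% and 18% of all genes. No member was called higher, where 0.532%, 0.0251% and 1.08% of all genes were in the same 3 comparisons, and 13.9%, 0.466% and 21% with no minimum fold. In a moderated F test across the 3 groups, 3 of 5 members had an adjusted p of 0.05 or below, Mmrn1 (0.000233), Flt4 (0.00215) and Prox1 (0.049), where 33.2% of all genes did.

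**Figure D1:**
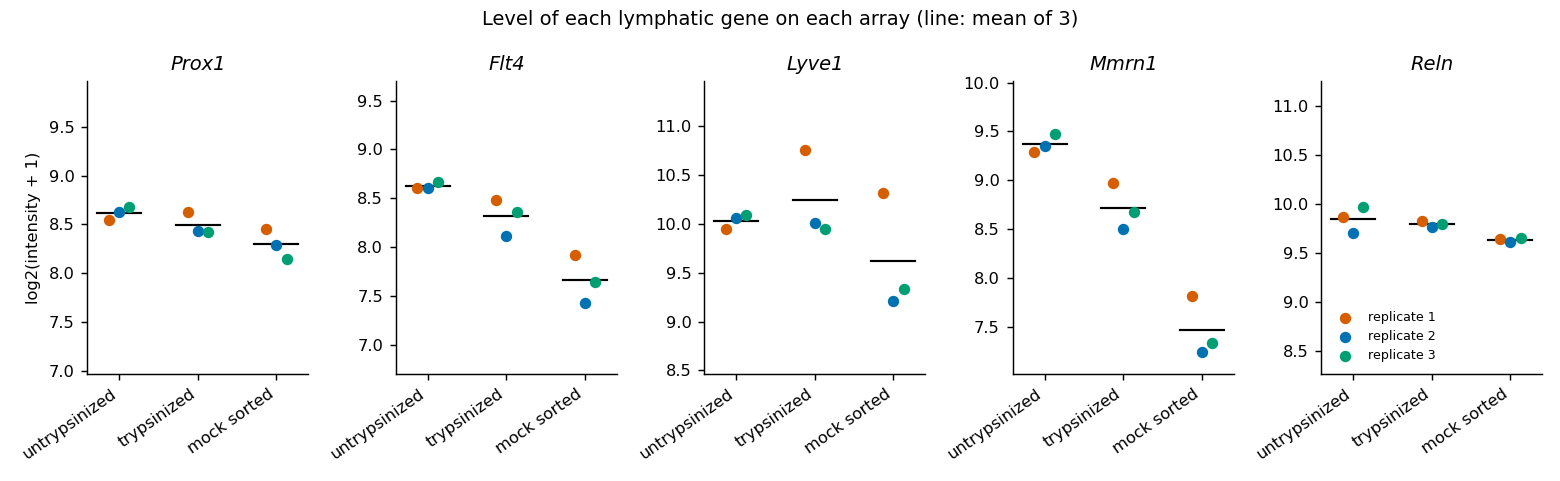
Log2(intensity + 1) of each lymphatic gene (vertical axis, each panel spanning the same range of 3 log2 units) on the untrypsinized, trypsinized and mock sorted arrays. Points are arrays coloured by replicate number and lines are means of 3 arrays. Mmrn1 and Flt4 step down through the stages, Prox1 and Reln span a narrower range, and the replicate-1 arrays of the later stages stand high for Lyve1.

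Mmrn1 had the largest change of the 5 genes in each comparison. Its levels were 9.29, 9.35 and 9.48 in untrypsinized replicates 1 to 3, 8.97, 8.50 and 8.67 in trypsinized, and 7.82, 7.24 and 7.33 in mock sorted. No group overlapped another. After trypsin it averaged 8.71 ± 0.24 in trypsinized and 9.37 ± 0.10 in untrypsinized arrays (SD), a fall by 0.66 (SE 0.16, limma adjusted p = 0.0228) or 1.58-fold. This call was lost without trypsinized replicate 2 (change -0.55, adjusted p = 0.0651), trypsinized replicate 3 (-0.64, 0.0697), untrypsinized replicate 2 (-0.67, 0.0531) or untrypsinized replicate 3 (-0.60, 0.0632).

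The sorter step took Mmrn1 down further, to 7.46 ± 0.31 in mock sorted arrays against 8.71 ± 0.24 in trypsinized arrays (SD), a fall by 1.25 (SE 0.16, limma adjusted p = 0.00338) or 2.38-fold. It was lower by 1.15 to 1.34 in each of the 3 same-number pairs of arrays, and the call held without any array. Its change ranked 20 from the lowest among 19938 genes. Over both steps Mmrn1 fell by 1.91 (SE 0.16, adjusted p = 7.43e-05) or 3.75-fold, at rank 22 from the lowest. All its mock sorted levels were below 7.87, the 90th percentile of 1027 olfactory genes, which served as a floor for dim genes.

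Flt4, the receptor, followed the same order of levels. It measured 8.60, 8.61 and 8.66 in untrypsinized replicates 1 to 3, 8.48, 8.11 and 8.36 in trypsinized, and 7.91, 7.42 and 7.64 in mock sorted. Again no group overlapped another. The change after trypsin was -0.31 (SE 0.13, limma adjusted p = 0.115, 95% interval -0.60 to -0.01) and did not pass the test. After the mock sort Flt4 averaged 7.66 ± 0.25 in mock sorted and 8.32 ± 0.19 in trypsinized arrays (SD), a fall by 0.66 (SE 0.13, adjusted p = 0.024) or 1.58-fold.

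Flt4 was lower by 0.57 to 0.72 in each of the 3 same-number pairs. The sorter-step call was lost without trypsinized replicate 1 (change -0.58, limma adjusted p = 0.0845) or 3 (-0.64, 0.0931), and without mock sorted replicate 2 (-0.54, 0.069) or 3 (-0.65, 0.0924). It was also lost in a fit of the 6 arrays compared (adjusted p = 0.0753). Over both steps Flt4 fell by 0.97 (SE 0.13, adjusted p = 0.000764) or 1.95-fold, a call that held without any array. Mock sorted replicates 2 and 3 of Flt4 also lay below the olfactory floor of 7.87.

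The promoters of Mmrn1 and Flt4, the 2 members called without pairing the arrays, are shown. Group means of Prox1 and Reln also fell at each step. Each window runs from 250 bases before to 50 bases after the start of the gene in RefSeq (GRCm38.p6) and is written 5′ to 3′ on the strand of the gene, with GGAA, the core of ETS factor sites, and its reverse complement TTCC in capitals. The Mmrn1 window is chr6:60944067-60944366 and the Flt4 window is chr11:49609429-49609728, both on the plus strand.
Mmrn1: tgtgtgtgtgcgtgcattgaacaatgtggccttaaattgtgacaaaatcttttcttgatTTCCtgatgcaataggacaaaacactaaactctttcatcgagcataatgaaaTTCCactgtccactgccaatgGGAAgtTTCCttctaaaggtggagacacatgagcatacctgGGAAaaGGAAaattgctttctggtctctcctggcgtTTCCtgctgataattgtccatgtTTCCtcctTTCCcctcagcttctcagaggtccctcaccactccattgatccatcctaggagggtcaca
Flt4: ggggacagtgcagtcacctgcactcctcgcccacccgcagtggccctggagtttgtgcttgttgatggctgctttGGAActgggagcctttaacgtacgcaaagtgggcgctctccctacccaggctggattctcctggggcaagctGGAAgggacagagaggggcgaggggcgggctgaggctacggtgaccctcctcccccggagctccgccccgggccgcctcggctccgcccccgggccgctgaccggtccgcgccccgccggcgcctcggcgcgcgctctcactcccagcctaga

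The windows differ in composition. That of Mmrn1 had 44.3% G or C and that of Flt4 70.3%, where the median of 32851 promoter windows of 300 bases was 52.7%. Counting both strands, GGAA occurred 9 times in the Mmrn1 window and 2 times in the Flt4 window, and 96% of all windows hold it, at a median of 3. The letters ACAAT, found in SOX factor sites, occurred 3 times in the Mmrn1 window and in 31% of all windows. The Flt4 window had no ACAAT. Neither window had GATAAG, letters read by GATA factors, which 7.44% of all windows hold. The TATA box letters TATAAA, in 13.6% of all windows, were also in neither. None of these motifs contains another.

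Prox1, the identity factor, was called in no comparison. Its levels were 8.55, 8.63 and 8.68 in untrypsinized replicates 1 to 3, 8.62, 8.44 and 8.42 in trypsinized, and 8.45, 8.29 and 8.15 in mock sorted. Trypsinized arrays overlapped both other groups, while mock sorted and untrypsinized arrays did not overlap. The change was -0.13 after trypsin (SE 0.09, limma adjusted p = 0.311, 95% interval -0.32 to 0.07) and -0.20 at the sorter step (SE 0.09, adjusted p = 0.294, 95% interval -0.39 to 0.00). At that step Prox1 was lower in each of the 3 same-number pairs, by 0.15 to 0.27, and was not called with the pairs as a block in 6 arrays (adjusted p = 0.105). Over both steps it was -0.32 (SE 0.09, adjusted p = 0.0195), or 1.25-fold lower, under the minimum fold.

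That adjusted p for Prox1 was 0.0514 to 0.0612 without untrypsinized replicate 2 or 3 or mock sorted replicate 2 or 3. Prox1 has 2 starts in the promoter table, whose windows had 5 and 2 GGAA, and the upstream window also had a TATAAA.

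Reln, the secreted ligand, had the smallest differences of the 5 in each comparison. It measured 9.87, 9.71 and 9.97 in untrypsinized replicates 1 to 3, 9.83, 9.77 and 9.80 in trypsinized, and 9.64, 9.61 and 9.65 in mock sorted. Mock sorted arrays lay below all trypsinized and untrypsinized arrays, while trypsinized arrays fell within the untrypsinized range. The change was -0.05 after trypsin (SE 0.06, limma adjusted p = 0.57, 95% interval -0.20 to 0.09) and -0.17 at the sorter step (SE 0.06, adjusted p = 0.223, 95% interval -0.31 to -0.02). At that step Reln was lower in each of the 3 same-number pairs, by 0.15 to 0.19, and was not called with the pairs as a block in 6 arrays (adjusted p = 0.0998). Over both steps it was -0.22 (SE 0.06, adjusted p = 0.0266), or 1.16-fold lower.

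That adjusted p for Reln was 0.0534 to 0.0776 without untrypsinized replicate 1 or 3 or any of the mock sorted arrays. Of the genes through which reelin signals, the receptors Lrp8 and Vldlr and the adaptor Dab1, 0 of 3 were called in any comparison. Lrp8 was higher over both steps under the minimum fold, by 0.34 (SE 0.04, adjusted p = 0.000733), and Vldlr (-0.10) and Dab1 (-0.04) did not pass the test. The Reln window of the promoter table had 80.7% G or C and 3 GGAA.

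Groups that did not overlap were counted over all genes for comparison. Trypsinized arrays lay below every untrypsinized array for 2 of 5 members, where 19.4% of all genes did so. Mock sorted arrays lay below every trypsinized array for 3 of 5, against 14.3% of all genes, and below every untrypsinized array for 4 of 5, against 23.4%.

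Lyve1, the capillary hyaluronan receptor, was the member with the widest spread within the trypsinized and the mock sorted groups, with SDs of 0.45 and 0.61. Its levels were 9.94, 10.06 and 10.09 in untrypsinized replicates 1 to 3, 10.76, 10.01 and 9.95 in trypsinized, and 10.32, 9.21 and 9.33 in mock sorted. Replicate 1 stood above both other arrays of its group in the trypsinized and mock sorted groups, and lowest in the untrypsinized group. The change was 0.21 after trypsin (SE 0.31, limma adjusted p = 0.645, 95% interval -0.49 to 0.91), -0.62 at the sorter step (SE 0.31, adjusted p = 0.357, 95% interval -1.33 to 0.08) and -0.41 over both steps (SE 0.31, adjusted p = 0.311, 95% interval -1.12 to 0.29).

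Within same-number pairs, Lyve1 was lower in mock sorted than in trypsinized arrays by 0.44 in replicate 1, 0.80 in replicate 2 and 0.62 in replicate 3. With the replicate number as a block in a fit of these 6 arrays, the sorter-step change of -0.62 had a limma adjusted p of 0.0375 and was called. In the blocked fit of all 9 arrays it was not (adjusted p = 0.237). The call in 6 arrays rests on pairs inferred from these same values. Leaving out both replicate-1 arrays of the later stages, an alternative added after seeing the data, gave a called fall by 0.71 at the sorter step (adjusted p = 0.00497) and by 0.76 over both steps (adjusted p = 0.000524), and a change of -0.05 after trypsin. Leaving out mock sorted replicate 1 alone gave a called fall over both steps by 0.76 (adjusted p = 0.0336). Leaving out trypsinized replicate 1 alone gave -0.36 at the sorter step (adjusted p = 0.632) and -0.05 after trypsin.

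The height of the replicate-1 arrays was shared by marker lists of other cells. The mean log2 level of 11 lymphocyte markers was 8.40 to 8.42 in untrypsinized arrays. Single markers varied more there, in opposite directions. Cd79a measured 9.11, 8.12 and 8.81 in untrypsinized replicates 1 to 3, and Cd8b1 8.28, 9.20 and 8.87. The list mean was 10.38 in trypsinized replicate 1 against 9.18 and 9.12 in replicates 2 and 3. In mock sorted arrays it was 10.18 in replicate 1 against 9.03 and 8.92. All 11 were highest in replicate 1 of both later groups, where 16.5% of all genes were. All 6 genes of the list named lymph node stroma (Ccl19, Cxcl13, Madcam1, Glycam1, Cr2 and Fcer2a) were also highest there. That list is not specific to stroma, since B cells carry Cr2 and Fcer2a and mammary epithelium can make Glycam1. Whether it follows cells other than lymphocytes was not tested. The list mean was 10.12, 9.27 and 9.98 in untrypsinized replicates 1 to 3, 10.82, 9.82 and 9.97 in trypsinized, and 10.50, 9.34 and 9.63 in mock sorted.

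Among the 13 macrophage markers, 9 were highest in replicate 1 in each of the later groups, and the list mean was 9.67 to 9.79 in untrypsinized, 9.62 to 9.87 in trypsinized and 9.35 to 9.64 in mock sorted arrays. No gene of these lists was listed at 0. Of the lymphatic members, 0 of 5 were highest in replicate 1 among untrypsinized arrays, 5 of 5 among trypsinized and 4 of 5 among mock sorted arrays, where 18.8%, 35.3% and 32.4% of all genes were. The vascular list mean was 10.75 to 10.76 on the trypsinized arrays, where 8 of 19 genes were highest in replicate 1. In mock sorted arrays 15 of 19 were, and the list mean was 9.87 in replicate 1 against 9.65 and 9.77. The part of these other cells in the lymphatic values was not tested.

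**Figure D2:**
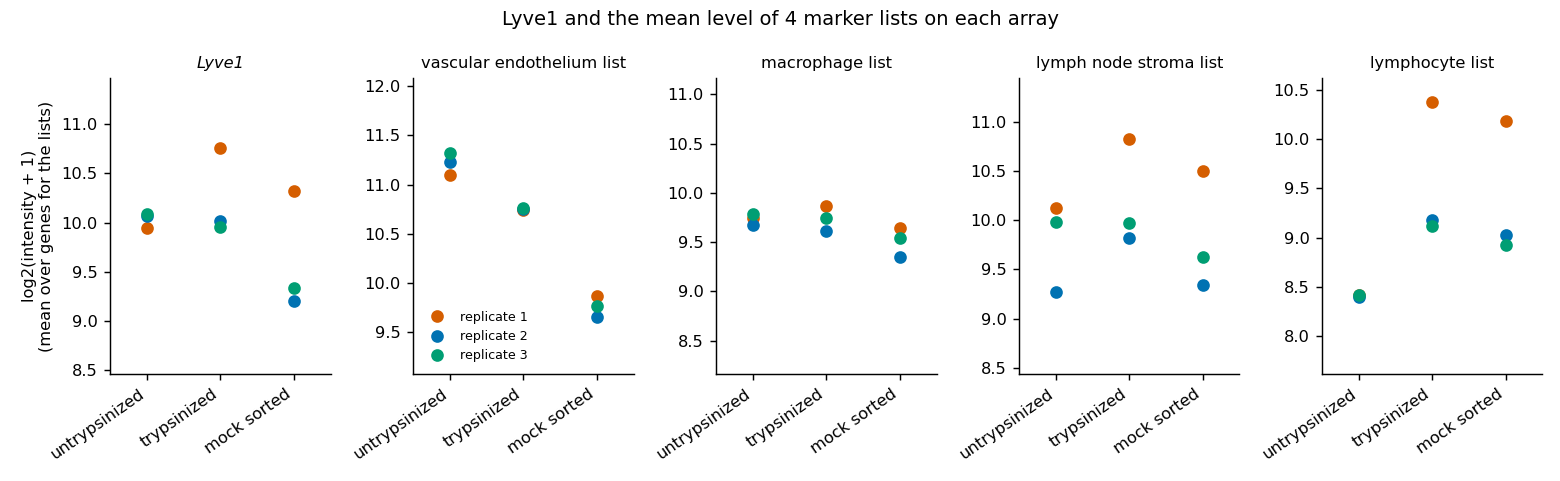
Log2(intensity + 1) of Lyve1 and the mean over genes of the vascular endothelium, macrophage, lymph node stroma and lymphocyte lists (vertical axis, each panel spanning 3 log2 units) on each array, by stage and coloured by replicate number. Lyve1, lymph node stroma and lymphocyte lists stand high in replicate 1 of the trypsinized and mock sorted groups, while the 3 trypsinized arrays coincide for the vascular list.

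Of the 13 macrophage markers, 1 was called higher after trypsin, 1 lower at the sorter step and 3 lower over both steps. The shares of all genes so called were 0.532%, 1.17% and 3.4%. With no minimum fold, 7 were lower and 1 higher over both steps, where 18% and 21% of all genes were. Cd209f, a lectin receptor, fell by 0.72 at the sorter step (SE 0.09, limma adjusted p = 0.00207). Over both steps Cd209f fell by 1.07 (SE 0.09), Mrc1, the mannose receptor, by 0.81 (SE 0.12) and Adgre1, a surface receptor used to mark macrophages, by 0.66 (SE 0.06). Timd4, a receptor for apoptotic cells, rose by 1.31 after trypsin (SE 0.41, adjusted p = 0.0487), a call lost without any of the untrypsinized arrays, trypsinized replicate 1 or 3, or mock sorted replicate 3, and after quantile normalization (adjusted p up to 0.138 without 1 array). Of the platelet markers, which bear on Mmrn1, 0 of 6 were called at either single step. Over both steps Pf4, a platelet chemokine, was the only marker of 6 called, and fell by 0.66 (SE 0.07, adjusted p = 0.000221). The median of the 6 was -0.04, with 3 below 0. With no minimum fold, 3 of the 6 were lower and 1 higher over both steps, where 18% and 21% of all genes were. The higher one was Itga2b, a platelet integrin, by 0.36 (SE 0.07, adjusted p = 0.00379), under the minimum fold.

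The contrast of the sorter step minus the trypsin step asked whether a member's change differed between the steps. Both steps use the trypsinized arrays. The difference was -0.59 for Mmrn1 (SE 0.29, limma adjusted p = 0.346, 95% interval -1.25 to 0.06), -0.35 for Flt4 (SE 0.22, adjusted p = 0.458, 95% interval -0.86 to 0.16) and -0.83 for Lyve1 (SE 0.53, adjusted p = 0.466, 95% interval -2.05 to 0.39). It was -0.07 for Prox1 and -0.11 for Reln (adjusted p = 0.847 and 0.637). No member passed with or without the minimum fold, where 0.0602% and 0.115% of all genes did so in the lower and 0.01% in the higher direction under either rule. A call for Flt4 at the sorter step and none after trypsin therefore does not show that the steps differ for it.

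Members were then set against the vascular endothelial list within each array, as the member's log2 level minus the mean log2 level of 19 vascular genes. Only changes of this difference carry meaning, since the rows measure different transcripts. Members can also be dimmer than the list, as with Flt4 at 7.42 to 8.66 and the vascular list mean at 9.65 to 11.32. Whether dimness reduces a member's change relative to the list was not tested. The mean change of the vascular list was -0.46 after trypsin, -0.99 at the sorter step and -1.45 over both, with 5, 17 and 18 of 19 genes called lower and 0 called higher. Without untrypsinized replicate 3, 2 of 19 were called after trypsin, and without untrypsinized replicate 1, 8 were. The median change over both steps was -1.54 for the 19 vascular genes, -0.41 for the 5 lymphatic members and 0.05 for all genes. Over both steps the medians of other marker lists were -1.18 for 8 pericyte genes (5 called lower), -1.61 for 5 Schwann cell genes (3 called lower) and -0.41 for 9 fibroblast genes (1 called lower), and their part in the lymphatic values was not tested.

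**Figure D3:**
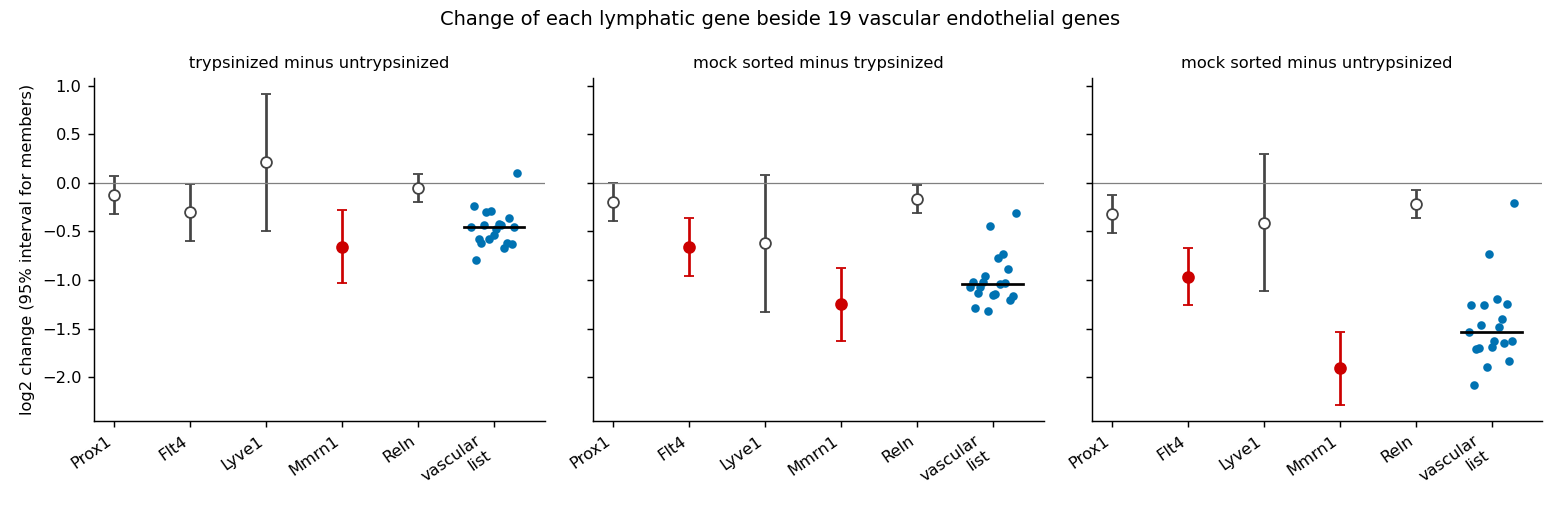
Log2 change (vertical axis) of the 5 lymphatic genes, with 95% intervals, beside the changes of 19 vascular endothelial genes (blue points, black line at their median) in the 3 comparisons. Filled red points are members that were called and open points members that were not. Prox1 and Reln lie above nearly all vascular genes at the sorter step and over both steps, and Mmrn1 lies among the lowest.

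Relative to the vascular list, Prox1 was higher by 1.13 and Reln by 1.23 in mock sorted than in untrypsinized arrays, with no overlap between the groups. The exact two-sided permutation p over 3 against 3 arrays was 0.1 for each, the smallest this design allows, so it cannot reach 0.05. Over both steps 18 of the 19 vascular genes had a lower change than Prox1 and Reln, the exception being Ushbp1, whose change was -0.21. Lyve1 was higher relative to the list by 1.04 and Flt4 by 0.49, again with no overlap (exact permutation p = 0.1 each). Measured the same way, 99% of all genes were higher relative to it with no overlap, at a median of 1.51, above the values of these 4 members.

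Mmrn1 went the other way and was lower relative to the vascular list by 0.46 over both steps, with no overlap (exact permutation p = 0.1), as 0.351% of all genes were. At the single steps it was lower by 0.19 after trypsin and by 0.26 at the sorter step, with overlapping arrays (exact permutation p = 0.4 and 0.3). Of the 19 vascular genes only Tek, the angiopoietin receptor, had a lower change than Mmrn1 over both steps, at -2.08 (SE 0.08). Mmrn2, the endothelial relative of Mmrn1, fell by 1.62 (SE 0.08).

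**Figure D4:**
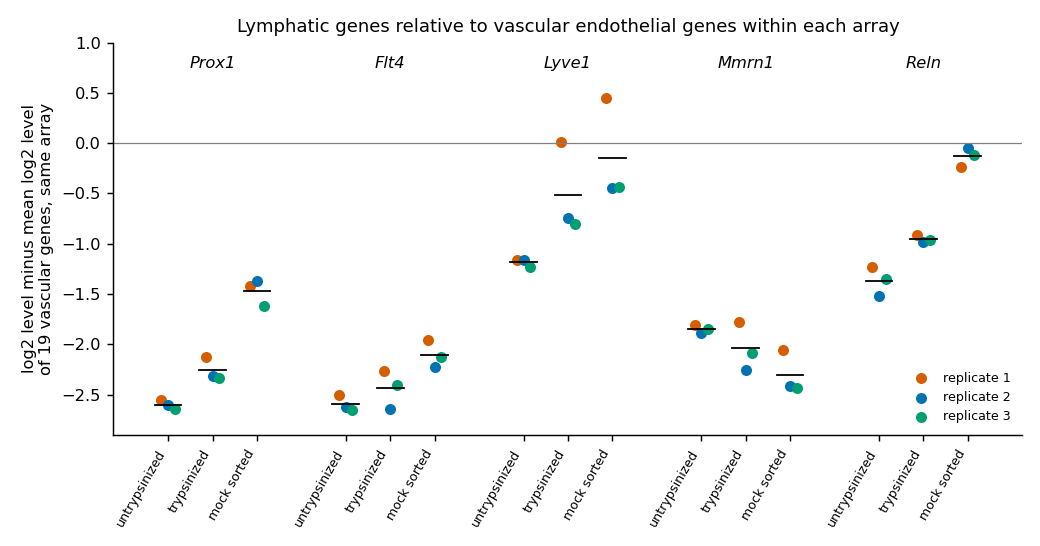
Log2 level of each lymphatic gene minus the mean log2 level of 19 vascular endothelial genes on the same array (vertical axis), by stage, with arrays coloured by replicate number and lines at the mean of 3. The difference climbs through the stages for Prox1 and Reln and is lower in mock sorted than in untrypsinized arrays for Mmrn1. Heights of different genes are not comparable.

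Across the 9 arrays the members' profiles were alike to different degrees. Pearson correlations of log2 level, which include the shared differences between stages, were 0.99 between Flt4 and Mmrn1, 0.90 between Prox1 and Mmrn1, 0.89 between Prox1 and Flt4 and 0.83 between Reln and Mmrn1. Those of Lyve1 with the other members were 0.48 to 0.77. Among 16426 genes searched, the profile most like that of Mmrn1 was that of Angpt2, the angiopoietin that destabilises vessels (r = 0.996 over 9 arrays), followed by S1pr3, Lrrc8c, Cxcl12 and Des.

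The profiles most like that of Flt4 were those of Gpr182, an endothelial chemokine-binding receptor (r = 0.99), Gdf11, Arhgef7, Madcam1, the addressin of venules in lymphoid tissue and a gene of the lymph node stroma list, and Ndrg1. For Lyve1 they were Grap, a lymphocyte signalling adaptor (r = 0.99), Tnfrsf1b, a TNF receptor of immune cells, Sp100, Irf2 and Cyria. For Prox1 they were Taok2 (r = 0.99), Gbp4, Itgb3, Crem and Il4ra, and for Reln Fbxw8 (r = 0.97), Lamc1, Frmd8, Sec24d and Plat. None of these 25 genes is on the vascular list, while Des is on the pericyte list and Itgb3 on the platelet list. Correlations of the members with the vascular genes are not given here, so this does not show that vascular profiles were unlike theirs. Amplitudes differed: at the sorter step Gpr182 changed by -0.90 and Angpt2 by -0.77, while Ndrg1 changed by -0.12 and Taok2 by -0.13.

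Other genes of lymphatic growth and identity were described by role, from lists written with earlier results of these data known. With the 3 reelin signalling genes above, the lists held 55 measured genes. Over both steps 19 of 55 were called lower and 0 higher, at a median change of -0.35, where 3.4% of all genes were called lower. At the sorter step 11 were called lower and after trypsin 6, with 0 higher, where 1.17% and 0.933% of all genes were called lower. Without untrypsinized replicate 3 the trypsin count was 2 lower and 1 higher, and without untrypsinized replicate 1 it was 9 lower. Of these genes, Kdr, Tek, Tie1 and Cdh5, are also on the vascular list, and Mrc1 is on the macrophage list.

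Of the ligands and the proteins that process them, 2 of 10 were called lower over both steps. Vegfc, the main ligand of Flt4, fell by 0.86 (SE 0.06, limma adjusted p = 1.47e-05), to 8.36 ± 0.11 in mock sorted arrays against 9.22 ± 0.02 in untrypsinized arrays (SD, n = 3 each). Angpt2 fell by 1.24 over both steps (SE 0.12) and by 0.77 at the sorter step (SE 0.12). Vegfd, the second Flt4 ligand, was lower by 0.48 (SE 0.06, adjusted p = 0.000414), under the minimum fold. Ccbe1 and Adamts3, which help to cleave Vegfc into its active form, were higher under the minimum fold, by 0.29 and 0.21 (adjusted p = 0.0105 and 0.00527). Adamts3 has 16 rows, and its value is from the row with the highest mean alone.

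Receptors and co-receptors held the largest share, with 8 of 10 called lower over both steps at a median of -1.38. At the sorter step 6 of 10 were called lower, and after trypsin 4 of 10. The 10 include Sema3a, a secreted ligand, which was not called. Nrp2, the neuropilin that binds Vegfc beside Flt4, fell by 1.45 over both steps (SE 0.12, limma adjusted p = 5.74e-05). Kdr, the other receptor for Vegfc, fell by 1.70 (SE 0.09) and Tie1, a partner of Tek, fell by 1.71 (SE 0.07). Calcrl, the adrenomedullin receptor, fell by 1.60 (SE 0.14), and Ramp2, the partner it needs, fell by 1.32 (SE 0.09). Itga9, an integrin of lymphatic valves, fell by 0.77 (SE 0.05) and S1pr1, a sphingosine phosphate receptor, by 1.21 (SE 0.26). Met was higher under the minimum fold by 0.21 (adjusted p = 0.00558). After trypsin, Kdr, Nrp2, Tek and Calcrl were called, and without untrypsinized replicate 3 only Tek and Calcrl were. The Nrp2 call after trypsin was also lost without trypsinized replicate 2 or 3.

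Of the transcription factors, 2 of 9 were called lower over both steps. Nr2f2 (COUP-TFII), which acts before Prox1 in venous cells that turn lymphatic, fell by 1.19 (SE 0.06, limma adjusted p = 3.55e-06), and Sox18, which induces Prox1 in the embryo, fell by 0.94 (SE 0.09, adjusted p = 0.000178). Single-step calls for both were close to the minimum fold. That of Nr2f2 after trypsin (-0.62) was lost without untrypsinized or trypsinized replicate 3, at -0.57 at the least. That of Sox18 at the sorter step (-0.61) was lost without trypsinized replicate 3, mock sorted replicate 2 or both later replicate-1 arrays, at -0.55 at the least without 1 array. Gata2 and Foxc1 were lower under the minimum fold, by 0.48 and 0.38, and Foxc2, a factor of lymphatic valves, changed by -0.08 (adjusted p = 0.366).

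Of the junction and valve genes, 3 of 9 were called lower over both steps: Cdh5 (VE-cadherin) fell by 1.26 (SE 0.09), Gja4, a connexin, by 1.16 (SE 0.07) and Fat4, a large cadherin of lymphatic valves, by 0.77 (SE 0.07). Piezo1, a mechanically gated channel, was higher by 0.39 (SE 0.08, limma adjusted p = 0.00523), under the minimum fold, in the row with the highest mean of its 3. Of the surface and secreted genes, 4 of 14 were called lower over both steps. Stab1, a scavenger receptor that lymphatic endothelium and macrophages share, fell by 1.26 (SE 0.10), Fgl2 by 1.15 (SE 0.07), Mrc1 by 0.81 (SE 0.12), and Ackr4, a chemokine scavenger, by 0.80 (SE 0.05).

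The Fgl2 call after trypsin (-0.61) was lost without untrypsinized replicate 3, at -0.52. Pdpn (podoplanin), which lymphatic endothelium shares with myoepithelial cells and fibroblasts, was lower by 0.42 (SE 0.05, limma adjusted p = 0.000327), under the minimum fold. Ackr2, a chemokine decoy receptor of lymphatic vessels, was higher by 0.35 (SE 0.06, adjusted p = 0.00362), under the minimum fold. So was Clca3a1, by 0.25 (SE 0.04, adjusted p = 0.00268). Stab2 changed by 0.39 (SE 0.23, adjusted p = 0.205).

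**Figure D5:**
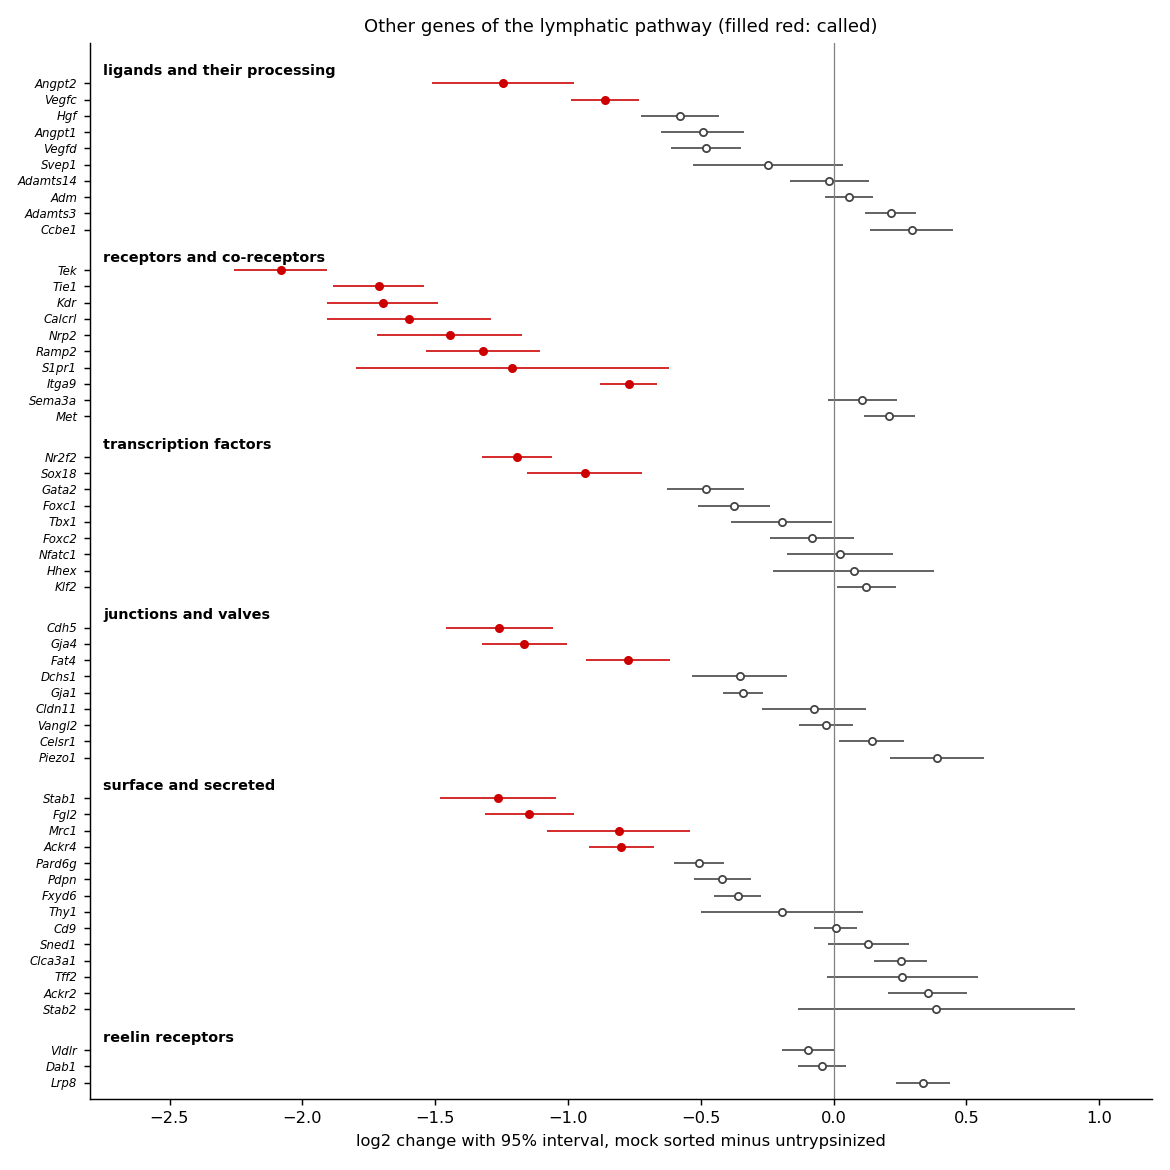
Log2 change in mock sorted minus untrypsinized arrays with 95% intervals (horizontal axis) for 55 measured genes, those of lymphatic growth and identity and the 3 of reelin signalling, grouped by role and ordered by change. Filled red points are genes called lower, 19 in all, of which 8 are receptors or co-receptors, and open points are genes not called.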

How the data were processed

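Total RNA was measured on 9 Affymetrix whole-transcript arrays, 3 in each of 3 groups. The authors deposited linear intensities, 1 per row and array in 35512 rows. How the background was corrected, probes summarised and arrays scaled is not stated in these sources, and the file holds no detection call, so whether a dim gene is above background is unknown. The submitters' processing notes name limma.

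Row names come from the platform's annotation, some of it possibly out of date: 21789 rows had 1 gene symbol, 1621 several and 12102 none, and 21698 symbols were updated by gene number with RefSeq (GRCm38.p6). The row with the highest mean stood for each gene. Values were tested as log2(intensity + 1), which understates changes of dim genes, with limma 3.58.1 in R 4.3.3: a mean per group over all 9 arrays, moderated by empirical Bayes, with p adjusted by Benjamini-Hochberg over 19938 genes. The fit was checked on simulated data. The thresholds (0.05 and 1.5-fold) come from the submitters' design text, which does not say whether p was adjusted. It does not name the comparison over both steps.

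The members and lists were chosen with earlier results of these data known. Named genes are the members, every called gene of the pathway, vascular and macrophage lists or else up to 4 with the smallest F test p, and the 5 genes whose profile correlated best with each member among genes with a mean log2 level of at least 7, without predicted genes, clone names and small RNAs. Not every gene the rule gives is named. Pf4, Itga2b, and the list genes named although they were not called, were picked with their values seen.

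Each group uses the same replicate numbers. Between mock sorted and trypsinized arrays of the same number, deviations from the group means had correlations over genes of 0.53, 0.29 and 0.29. Between different numbers they were 0.16 and 0.13 for replicates 2 and 3, and -0.36 to -0.31 where replicate 1 took part. The numbers were taken to pair these arrays, from the values and not the labels. Blocked fits of these arrays therefore rest on pairs inferred from the values that they test. The correlations were 0.32, 0.18 and 0.06 between mock sorted and untrypsinized arrays and 0.11, 0.04 and -0.04 between trypsinized and untrypsinized arrays, which were not taken as paired. Promoter sequences are from RefSeq, which held 4 of the 5 members, and Lyve1 was not among them.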

Additional observations from a re-analysis of the deposited data

How the results depend on the processing

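The counts of members called lower were 1 after trypsin, 2 at the sorter step and 2 over both steps. Leaving out each array in turn gave 0 to 1, 1 to 2 and 2 to 3, and the counts of all genes called lower were then 153 to 220, 208 to 273 and 644 to 715, where all arrays gave 186, 233 and 677. With no minimum fold 4 members were lower over both steps, and 2289, 838 and 3588 of all genes were lower in the 3 comparisons. After scaling arrays to 1 common median, 376 genes were lower after trypsin and 1028 over both steps. That scaling moved the median change of all genes to -0.09 after trypsin and over both steps, where it was 0.04 and 0.05, and the share of called genes that were higher to 12.8% and 8.21%, where it was 36.3% and 24.1%. Quantile normalization over all rows gave 17% and 11.9%. Under both scalings the same number of members was called in each comparison, and Prox1 after trypsin reached an adjusted p of 0.0277 and 0.0466 at changes of -0.26 and -0.25. In a fit of only the 6 arrays compared, 1 member was called at the sorter step, since Flt4 had an adjusted p of 0.0753.

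With the replicate number as a block in a fit of 6 arrays, 0 members were called after trypsin (Mmrn1 adjusted p = 0.0522), 3 at the sorter step (Lyve1 in addition) and 2 over both, and in the blocked fit of 9 arrays 1, 2 and 2. The block changed no other call of a member. Signs that turned belonged to small changes that passed no test. The change of Lyve1 after trypsin was -0.050 to 0.35 over fits without 1 array, and -0.050 also without both later replicate-1 arrays, an alternative added after seeing the data. That of Reln was -0.12 to 0.0089 over fits without 1 array. The step difference of Prox1 was -0.15 to 0.060 over those fits, 0.048 with a common median and 0.029 after quantile normalization, and that of Reln was 0.0053 with a common median. The causes of these shifts were not tested. All 5 members passed both filters on dim genes, a mean log2 level of at least 7, and levels above 7.87 on 3 arrays. The arrays of a single group can meet the second filter. It therefore does not show that a member is above that level in every group, and mock sorted Mmrn1 (7.24 to 7.82) was not.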
